A study of Mus musculus with 8 samples.

Results

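The complement system was followed at the mRNA level in the uterus of Nr2f2 d/d and Nr2f2 f/f mice. The 37 genes described here were chosen by symbol, as the components, receptors and regulators of complement, from the 24963 genes of the deposited table. The rule that names them uses no measured value, though it was written with earlier results of these data known. All 37 symbols were found. The genes were ordered by their place in the cascade: 8 of the classical pathway, 7 of the lectin pathway, 4 of the alternative pathway with C3, 7 of the terminal pathway, 3 anaphylatoxin receptors and 8 regulators.

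RNA came from whole uterus on gestation day 3.5, with 1 library per sample, 4 libraries from Nr2f2 d/d mice and 4 from Nr2f2 f/f mice. The Nr2f2 f/f mice carried the floxed allele without Cre, and in the Nr2f2 d/d mice a Cre knocked into the progesterone receptor locus removed Nr2f2, which encodes the nuclear receptor COUP-TFII, from cells that express or have expressed Pgr. Both groups were C57B6/J females, 8 weeks old per the labels and mated to vasectomized males, and neither group carried embryos. The Cre allele itself was present in the Nr2f2 d/d mice alone. The cells in which this Cre is active include epithelium, stroma and muscle, and the labels do not say how the libraries were handled in batches or whether any tissue was pooled.

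Complement is a cascade of proteases that marks surfaces for removal. The classical pathway starts with C1q and its proteases C1r and C1s, the lectin pathway starts with mannose-binding lectins, ficolins or collectins and the MASP proteases, and both cleave C4 and C2 into the enzyme that activates C3. The alternative pathway does the same with factor B and factor D, and C5 to C9 then form a pore in membranes. Most plasma complement is made by the liver, but epithelial cells, fibroblasts and macrophages also make components, and C3 in the uterus is a known target of estrogen.

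The 4 libraries of each genotype were compared on FPKM, in which each gene's fragments are divided by gene length and by library size. Nr2f2 itself was 25.3, 21.8, 25.7 and 23.5 FPKM in the Nr2f2 f/f libraries and 9.66, 9.42, 6.90 and 9.74 FPKM in the Nr2f2 d/d libraries, in the order of replicates 1 to 4, a log2 fold change of −1.39 ± 0.118 (SE; limma with Benjamini-Hochberg adjustment, adjusted p = 0.00549). The uterine markers Hoxa10, Hoxa11, Pgr and Esr1 summed to 225 to 290 FPKM in Nr2f2 f/f and 216 to 290 FPKM in Nr2f2 d/d. Hoxa10 and Hoxa11, which made up most of the sum, had log2 fold changes of −0.09 and −0.18. Pgr had 0.48 and Esr1 0.31, and none of these markers had an adjusted p under 0.05 (limma). Library depth, recovered from the steps between low values, was 61050000 to 77350000 fragments in Nr2f2 f/f and 61250000 to 92000000 in Nr2f2 d/d. At these depths 3 fragments on a gene of 1 kb are worth 0.0326 to 0.0491 FPKM, an error of counting only.

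Among the 37 genes, C4b and C2 rose and Vtn fell in Nr2f2 d/d, while the mRNAs that start the classical pathway, C3, the anaphylatoxin receptors and most regulators did not pass the adjusted test. Of the 37 genes, 26 averaged at least 0.5 FPKM over the libraries and were tested in a fit over 14323 genes, in which a fold change is a difference of log2(FPKM + 0.5). 15 of the 26 had a higher mean and 11 a lower mean in Nr2f2 d/d. 3 of the 26 (11.5%) passed an adjusted p of 0.05, against 2.62% of all genes tested (1.09% called higher and 1.53% called lower). Without Nr2f2 f/f replicate 1 or 4 or Nr2f2 d/d replicate 1 or 2, 0 of the 26 passed it in limma (6 or 7 at an unadjusted p under 0.05, where 2222 to 2808 of all 14323 genes were), and 42 to 98 of all genes did, against 375 with all libraries. 6 of the 26 (23.1%) passed the threshold of the paper, an unadjusted p of 0.05 with a fold change of at least 1.4, against 8.8% of all genes tested (4.7% called higher and 4.1% called lower). The 6 were C4b, C2, Cfb and Cfi, all higher, and Vtn and Masp1, both lower. The 8 libraries separated by genotype without overlap for 6 of the 26 (23.1%), against 15.4% of all genes tested. The median log2 fold change of the 26 was 0.08 (range −0.97 to 1.55) and that of all genes tested was −0.02. In bulk tissue, fewer cells of a type and less RNA per cell cannot be told apart.

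**Figure D1:**
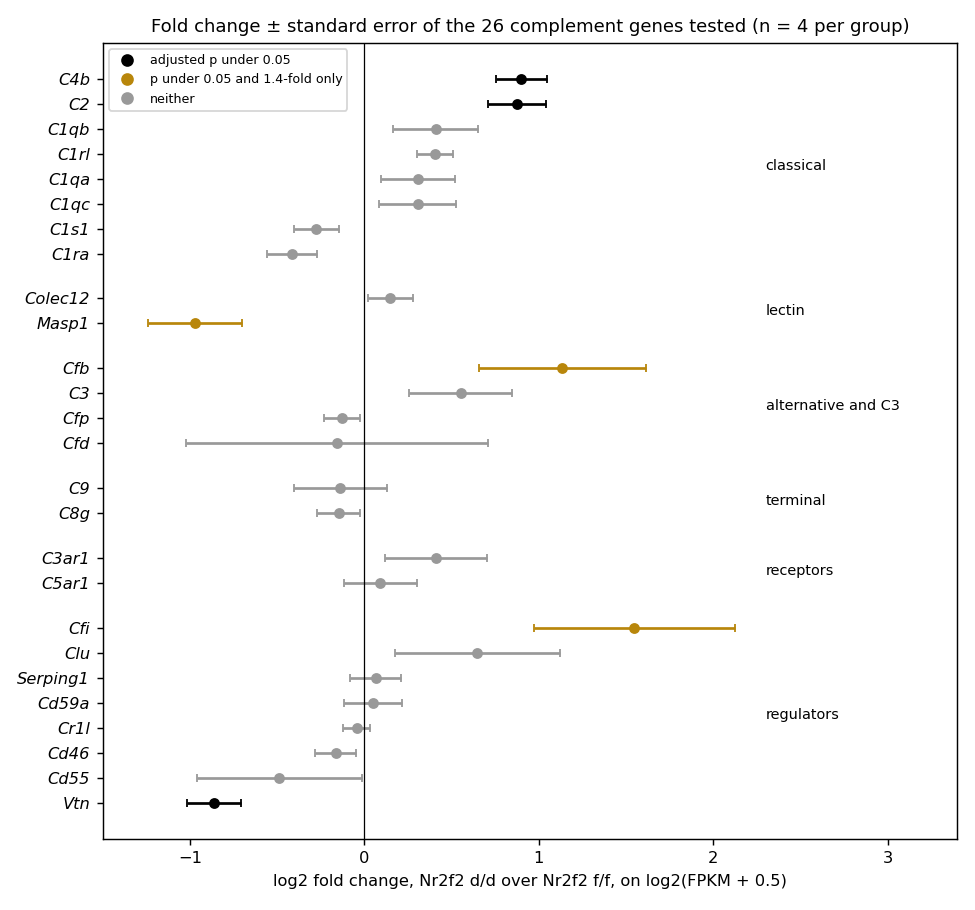
Log2 fold change of the 26 complement genes tested, Nr2f2 d/d over Nr2f2 f/f, with bars of 1 SE (n = 4 per group), ordered by pathway. C4b and C2 lie near 0.9 above 0 and Vtn near 0.9 below it, and the estimates for Cfi, Cfb and Cfd have the longest bars.

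C4b, the mouse C4 of the classical and lectin pathways, has a close relative, C4a, on the same strand of chromosome 17, so the sequences that can and cannot tell them apart are shown first. Over the coding sequence, 5006 of 5217 aligned bases were the same in both (96.0%), and the longest run without a difference was 433 bases, longer than the 76-base reads. Of all windows of 76 bases in the annotated transcripts of C4b, 22.3% also occurred in another gene, C4a. The stretches printed here are the 60 bases of exon 21 of 41 with the most differences, 13 in all, shown because a read over them can be placed. They are given 5′ to 3′ on the minus strand of mm10, with capitals at the bases that differ. The C4b stretch is chr17:34735430-34735489 and the C4a stretch is chr17:34816086-34816145.
C4b: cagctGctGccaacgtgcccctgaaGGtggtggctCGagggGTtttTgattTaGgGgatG
C4a: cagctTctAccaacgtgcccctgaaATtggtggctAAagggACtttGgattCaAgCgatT

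C4b (chr17:34728380-34743882) was 10.7, 11.2, 13.4 and 9.59 FPKM in Nr2f2 f/f and 20.7, 24.7, 16.5 and 24.1 FPKM in Nr2f2 d/d, here and for later genes in the order of replicates 1 to 4. Every Nr2f2 d/d library lay above every Nr2f2 f/f library. The mean went from 11.2 ± 1.57 to 21.5 ± 3.78 FPKM (SD, n = 4), a log2 fold change of 0.90 ± 0.147 (SE; limma, adjusted p = 0.0249), and the two-sided exact permutation test gave p = 0.0286, the smallest that 4 against 4 libraries allow. C4a was between 0.306 and 0.446 FPKM in all 8 libraries, below the filter, and the ratio of C4b to C4a was 24.1 to 38.7 in Nr2f2 f/f and 53.9 to 78.6 in Nr2f2 d/d. In every library the FPKM of C4a was thus a small fraction of that of C4b. How the counting placed reads from the identical stretches is not known.

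C2, the protease that joins C4 in the C3 convertase, was 13.9, 10.7, 12.2 and 10.6 FPKM in Nr2f2 f/f and 28.7, 23.9, 16.6 and 20.6 FPKM in Nr2f2 d/d. The groups did not overlap, and the lowest Nr2f2 d/d library was replicate 3, as for C4b. The mean went from 11.9 ± 1.57 to 22.5 ± 5.11 FPKM, a log2 fold change of 0.87 ± 0.167 (SE; limma, adjusted p = 0.0391; exact permutation p = 0.0286). The ratio of C2 to C4b within a library was 0.916 to 1.30 in Nr2f2 f/f and 0.853 to 1.39 in Nr2f2 d/d. C2 (chr17:34862604-34898265) ends 85 bases before the start of Cfb on the same strand, and 39.1% of its 76-base windows also occur in the annotated genes Gm20547 or Zbtb12, so part of its fragments may be counted elsewhere. With 1 library left out, the log2 fold change was 0.83 to 1.02 for C4b and 0.75 to 1.01 for C2, and both passed the threshold of the paper each time. C4b passed the adjusted test in 4 of the 8 cases and had an adjusted p of 0.0775, 0.0702, 0.0738 and 0.0858 (limma) without Nr2f2 f/f replicate 1 or 4 or Nr2f2 d/d replicate 1 or 2. C2 passed it without Nr2f2 d/d replicate 3 (0.0312), and without each of the others its adjusted p was 0.06 to 0.123.

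The 3 chains of C1q, the recognition unit of the classical pathway made mainly by macrophages, lay in a cluster on chromosome 4 with gaps of 3.616 kb and 2.851 kb and had near-equal levels. C1qa was 41.3, 51.8, 82.9 and 47.9 FPKM in Nr2f2 f/f and 78.2, 72.3, 55.5 and 64.4 FPKM in Nr2f2 d/d. C1qb was 36.2, 40.5, 74.3 and 42.7 FPKM in Nr2f2 f/f and 83.8, 61.5, 49.9 and 56.9 FPKM in Nr2f2 d/d. C1qc was 32.5, 45.5, 67.9 and 40.7 FPKM in Nr2f2 f/f and 68.9, 56.5, 46.3 and 53.3 FPKM in Nr2f2 d/d. For each chain Nr2f2 f/f replicate 3 was the highest control and lay within or above the Nr2f2 d/d values, so the groups overlapped. The log2 fold changes were 0.31 ± 0.212 for C1qa, 0.41 ± 0.243 for C1qb and 0.30 ± 0.220 for C1qc, and the adjusted p-values (limma) were 0.430, 0.367 and 0.456. Without Nr2f2 f/f replicate 3 the same differences were 0.51, 0.63 and 0.50, and all 3 chains passed the threshold of the paper but not the adjusted one.

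The C1q chains kept a steady ratio to each other: C1qa over C1qb was 1.115 to 1.28 in Nr2f2 f/f and 0.933 to 1.17 in Nr2f2 d/d, and C1qa over C1qc was 1.14 to 1.27 and 1.14 to 1.28. The 12 macrophage markers summed to 175 to 324 FPKM in Nr2f2 f/f and 283 to 507 FPKM in Nr2f2 d/d, and none was at 0 in all libraries. Lyz2 alone made up 53.2% to 72.4% of the sum, at 92.9 to 207 FPKM in Nr2f2 f/f and 186 to 367 FPKM in Nr2f2 d/d. The other 11 summed to 81.7 to 117 and 94.1 to 140 FPKM, with overlap, and Nr2f2 f/f replicate 3 and Nr2f2 d/d replicate 1 were highest in their groups, as for the C1q chains. Of the 11 tested, 7 had a higher and 4 a lower mean in Nr2f2 d/d, 0 passed the adjusted test in limma and 3 had an unadjusted p under 0.05, the same 3 that passed the threshold of the paper, led by Aif1 (log2 fold change 0.70, limma adjusted p = 0.0736) and Lyz2 (0.87, adjusted p = 0.153), while Folr2 had −0.52. The C1q sum was 0.618 to 0.696 of the 12-marker sum in Nr2f2 f/f and 0.456 to 0.606 in Nr2f2 d/d, without overlap. Over the 11 markers other than Lyz2 the ratio was 1.35 to 1.93 and 1.61 to 1.70, with overlap. The part of macrophage number in the C1q values was not tested.

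The proteases of the C1 complex differed among themselves. C1ra was 20.3, 26.4, 25.0 and 20.9 FPKM in Nr2f2 f/f and 16.2, 19.6, 13.5 and 19.9 FPKM in Nr2f2 d/d, so that every Nr2f2 d/d library lay below every control. C1s1 was 66.2, 90.0, 86.4 and 77.7 FPKM in Nr2f2 f/f and 66.9, 73.8, 53.5 and 70.2 FPKM in Nr2f2 d/d, with overlap. C1rl, which encodes a C1r-like protease, was 0.946, 1.00, 1.21 and 1.00 FPKM in Nr2f2 f/f and 1.47, 1.75, 1.35 and 1.58 FPKM in Nr2f2 d/d, without overlap. The log2 fold changes were −0.42 ± 0.143 for C1ra, −0.28 ± 0.131 for C1s1 and 0.40 ± 0.103 for C1rl, with adjusted p-values (limma) of 0.155, 0.276 and 0.0783. With 0.1 in place of 0.5 added before the log2, C1rl had 0.52 and passed the threshold of the paper, but not the adjusted test.

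These 3 genes are neighbours on chromosome 6, with C1rl 1.761 kb from C1ra and C1ra 6.901 kb from C1s1. The ratio of C1rl to C1ra was 0.0380 to 0.0483 in Nr2f2 f/f and 0.0793 to 0.0998 in Nr2f2 d/d, and that of C1s1 to C1ra was 3.27 to 3.72 and 3.53 to 4.12. C1ra shared 42.1% of its 76-base windows with C1rb or Gm18840, and C1s1 shared 24.4% with C1s2 or Gm16567. C1rb was at most 0.0380 FPKM and C1s2 at most 1.11 FPKM in any library, far below the levels of C1ra and C1s1, and how reads common to both were split is not known. Over the 8 classical pathway genes, all of them tested, 6 had a higher and 2 a lower mean in Nr2f2 d/d, 2 passed the adjusted test (2.62% of all genes tested did) and 4 did not overlap (15.4% of all genes tested), and the median log2 fold change was 0.36.

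**Figure D2:**
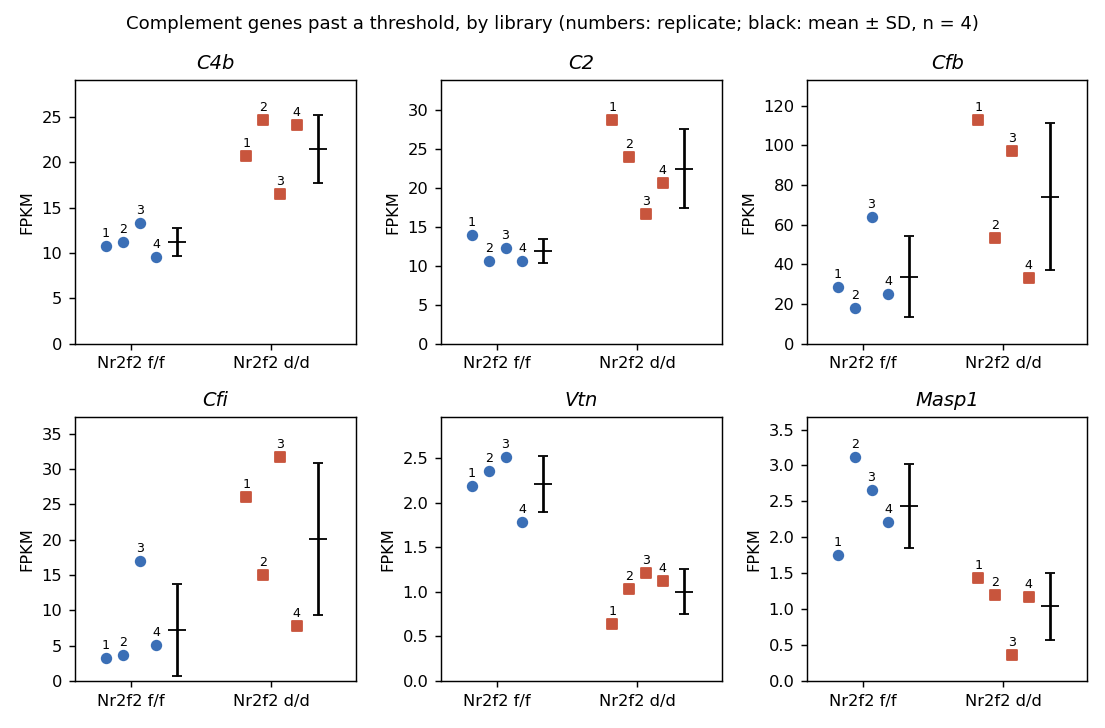
FPKM of the 6 complement genes that passed the threshold of the paper, by genotype, with 1 point per library numbered by replicate and a bar for the mean ± SD (n = 4). C4b, C2, Vtn and Masp1 do not overlap between genotypes, while Cfb and Cfi in Nr2f2 f/f replicate 3 lie above Nr2f2 d/d replicate 4.

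Factor B, encoded by Cfb, is the C2 counterpart of the alternative pathway. Cfb was 28.4, 17.9, 63.7 and 24.8 FPKM in Nr2f2 f/f and 113, 53.1, 97.1 and 33.2 FPKM in Nr2f2 d/d. Nr2f2 f/f replicate 3 lay above Nr2f2 d/d replicates 2 and 4, and the other controls lay below all Nr2f2 d/d libraries. The mean was 33.7 ± 20.5 FPKM in Nr2f2 f/f and 74.0 ± 37.2 FPKM in Nr2f2 d/d. The log2 fold change of 1.13 ± 0.479 passed the threshold of the paper (p = 0.0447) and not the adjusted test (limma, adjusted p = 0.225; exact permutation p = 0.114).

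Cfb (chr17:34856374-34862518) shared 69.7% of its 76-base windows with Gm20547, an annotated gene that runs over it and C2. The ratio of Cfb to its neighbour C2 was 1.68 to 5.21 in Nr2f2 f/f and 1.61 to 5.83 in Nr2f2 d/d, wider than that of C2 to C4b. C2 and Cfb thus had different library patterns: Nr2f2 d/d replicate 3 was the lowest of its group for C2 and the runner-up for Cfb.

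C3, at which all pathways meet, was among the most abundant complement mRNAs. It was 99.5, 124, 72.7 and 70.2 FPKM in Nr2f2 f/f and 190, 122, 159 and 78.5 FPKM in Nr2f2 d/d. Nr2f2 d/d replicates 1 and 3 lay above all controls, and replicates 2 and 4 lay among them. The mean was 91.5 ± 25.2 and 138 ± 48.2 FPKM, and the log2 fold change of 0.55 ± 0.293 did not pass either test (limma, adjusted p = 0.320). It passed the threshold of the paper without Nr2f2 f/f replicate 2 or without Nr2f2 d/d replicate 4.

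Cfp, which encodes properdin, the stabiliser of the alternative convertase, was 11.7, 11.1, 12.8 and 11.6 FPKM in Nr2f2 f/f and 11.6, 12.0, 8.84 and 10.9 FPKM in Nr2f2 d/d, with a log2 fold change of −0.13 ± 0.101. Cfd, which encodes factor D and is strongly expressed in fat cells, was 0, 0.0180, 5.36 and 0.670 FPKM in Nr2f2 f/f and 0.0880, 0.882, 2.26 and 0.0120 FPKM in Nr2f2 d/d. Its spread within a genotype was far wider than the difference between the means (log2 fold change −0.16 ± 0.865). All 8 fat cell markers were highest in replicate 3 among the controls, as Cfd was. Among the Nr2f2 d/d libraries Adipoq and Plin1 were highest in replicate 3, Cidec, Retn, Thrsp and Adrb3 in replicate 2 and Plin4 in replicate 4, and Lep was at 0. The part of adhering fat in the Cfd values was not tested. Of the 4 genes of the alternative pathway with C3, 2 had a higher and 2 a lower mean, 1 passed the threshold of the paper (8.8% of all genes tested did), and the median log2 fold change was 0.21.

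Among the lectin pathway genes, Masp1 and Colec12 were measured above the filter. Masp1, which encodes the protease MASP-1 and its splice forms, was 1.75, 3.11, 2.66 and 2.22 FPKM in Nr2f2 f/f and 1.44, 1.20, 0.361 and 1.17 FPKM in Nr2f2 d/d. All Nr2f2 d/d libraries lay below all controls, and the mean went from 2.44 ± 0.583 to 1.04 ± 0.468 FPKM. The log2 fold change of −0.97 ± 0.268 passed the threshold of the paper (p = 0.0064) and not the adjusted test (limma, adjusted p = 0.0947; exact permutation p = 0.0286). It passed the threshold of the paper whichever library was left out.

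Colec12, a membrane collectin and scavenger receptor of endothelial and stromal cells, was 29.2, 27.7, 35.7 and 35.6 FPKM in Nr2f2 f/f and 39.9, 38.0, 35.7 and 28.9 FPKM in Nr2f2 d/d, with overlap and a log2 fold change of 0.15 ± 0.127. The soluble recognition molecules were below the filter. Mbl1 and Mbl2, the mannose-binding lectins, were at most 0.0150 FPKM and never above the worth of 3 fragments in any of the 8 libraries. Fcna (ficolin A) was 0.0920 to 0.518 FPKM and Colec11 was 0.0770 to 0.293 FPKM. Masp2 was 0.05 to 1.11 FPKM, with 51.3% of its 76-base windows shared with the neighbouring gene Tardbp.

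The terminal pathway was little expressed. Hc, the mouse C5 gene, was 0.0930 to 0.366 FPKM, C6 was 0.0690 to 0.274 FPKM, and C8b was at most 0.0140 FPKM, above the worth of 3 fragments in 1 library. C7 was 0.0580, 0.0600, 0.142 and 0.15 FPKM in Nr2f2 f/f and 0.0360, 0.0570, 0.0400 and 0.0240 FPKM in Nr2f2 d/d, below the filter and so without a test. C8a was 0.0130, 0.0130, 0.0210 and 0.00400 FPKM in Nr2f2 f/f and 0.209, 0.0350, 0.119 and 0.0240 FPKM in Nr2f2 d/d, above the worth of 3 fragments in 5 libraries and likewise untested. The genotypes were set apart by 0.057 against 0.058 FPKM in C7 and by 0.021 against 0.024 FPKM in C8a, and both genes were picked out after their values were seen.

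C8g and C9 were the terminal genes above the filter. C8g, whose product is a lipocalin bound to C8, had a mean of 2.68 ± 0.404 FPKM in Nr2f2 f/f and 2.37 ± 0.298 FPKM in Nr2f2 d/d. C9, the subunit that builds the pore, had 1.09 ± 0.378 and 0.965 ± 0.423 FPKM. The log2 fold changes of −0.15 ± 0.123 and −0.14 ± 0.269 were within the spread of the libraries.

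**Figure D3:**
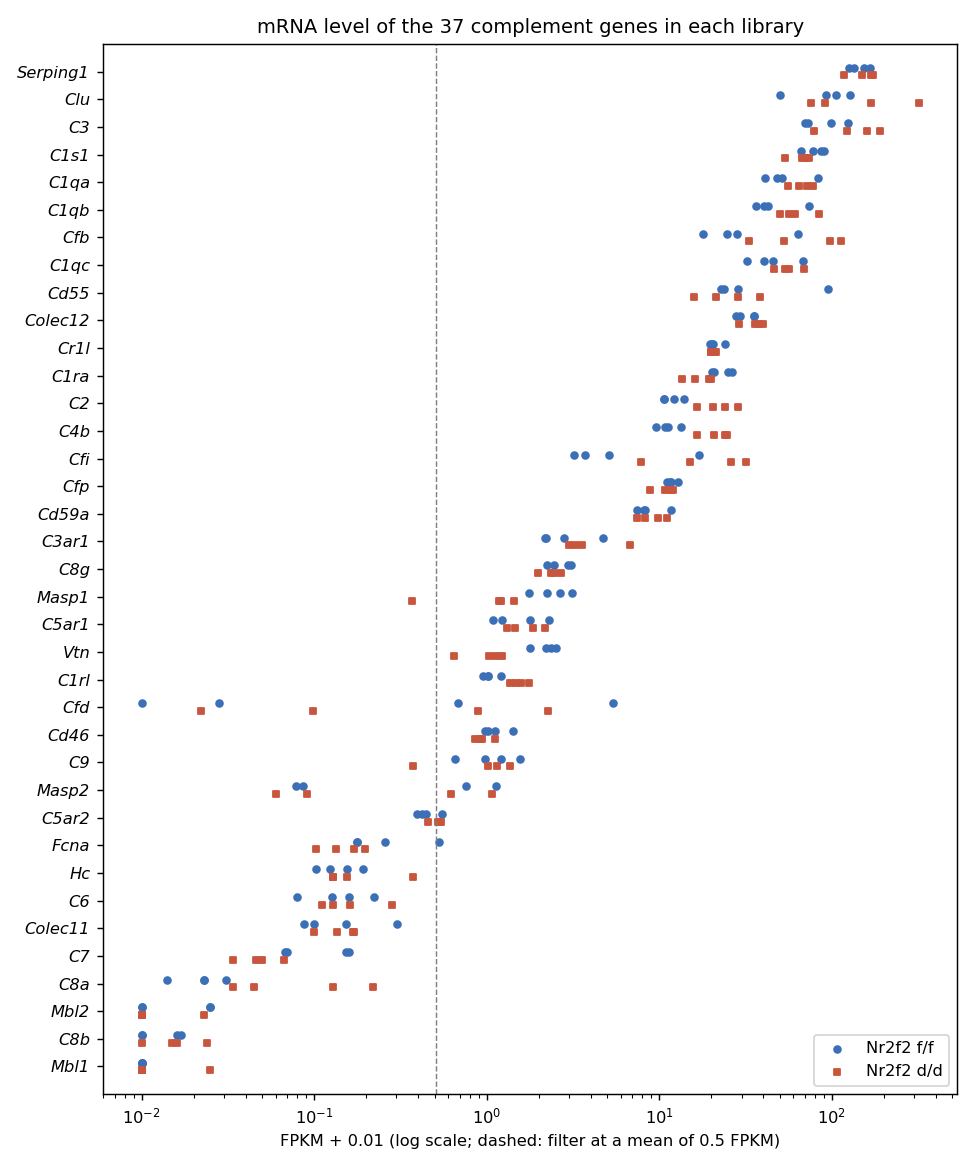
FPKM + 0.01 of the 37 complement genes in each of the 8 libraries on a log axis, ordered by the mean over all libraries, with circles for Nr2f2 f/f, squares for Nr2f2 d/d and a dashed line at the filter. Serping1, Clu and C3 lie highest, and 11 genes, among them Mbl1, Mbl2 and most terminal components, have means below the filter.

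By level, 3 of the 37 genes had a mean of at least 100 FPKM over all libraries, 13 lay between 10 and 100, 10 between 1 and 10, and 11 below 0.5 FPKM. The top 3 were Serping1 (149 FPKM), Clu (129 FPKM) and C3 (115 FPKM), a protease inhibitor, a chaperone that blocks pore insertion, and the central component. The genes of the pore, apart from C8g and C9, and the soluble lectins were among the 11.

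The receptors of the anaphylatoxins C3a and C5a, carried mainly by myeloid cells, were of low level. C3ar1 had a mean of 2.97 ± 1.21 FPKM in Nr2f2 f/f and 4.13 ± 1.75 FPKM in Nr2f2 d/d, where replicate 1 stood at 6.74 FPKM and the other 3 at 3.00 to 3.57 FPKM. C5ar1 had 1.59 ± 0.558 and 1.69 ± 0.398 FPKM. The log2 fold changes were 0.41 ± 0.291 and 0.09 ± 0.210 (limma, adjusted p = 0.447 and 0.840), and C3ar1 was at 0.63 without Nr2f2 f/f replicate 3, where it passed the threshold of the paper. C5ar2, the receptor that does not couple to G proteins, was 0.387 to 0.540 FPKM in the 8 libraries and was not tested.

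**Figure D4:**
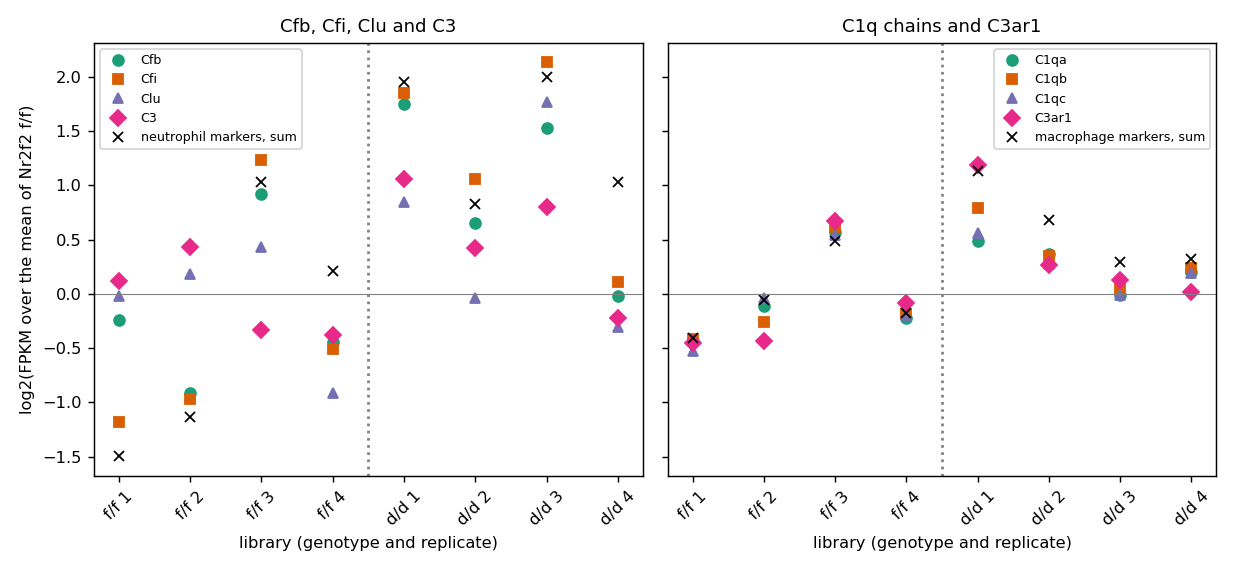
Log2 of FPKM over the mean of the 4 Nr2f2 f/f libraries, by library, for Cfb, Cfi, Clu and C3 with the sum of the neutrophil markers (left) and for the C1q chains and C3ar1 with the sum of the macrophage markers (right). On the left, Nr2f2 f/f replicate 3 and Nr2f2 d/d replicates 1 and 3 stand highest in their groups for Cfb, Cfi and Clu. The neutrophil sum is mostly S100a8 and S100a9 in Nr2f2 d/d, and the macrophage sum is 53.2% to 72.4% Lyz2. On the right, Nr2f2 f/f replicate 3 and Nr2f2 d/d replicate 1 stand highest.

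Among the regulators, Cfi and Vtn passed a test. Cfi, which encodes the protease factor I that inactivates C3b and C4b, was 3.18, 3.68, 16.9 and 5.08 FPKM in Nr2f2 f/f and 26.02, 15.001, 31.6 and 7.80 FPKM in Nr2f2 d/d. Nr2f2 f/f replicate 3 lay above Nr2f2 d/d replicates 2 and 4. The mean was 7.22 ± 6.53 FPKM in Nr2f2 f/f and 20.1 ± 10.7 FPKM in Nr2f2 d/d. The log2 fold change of 1.55 ± 0.578, the highest of the 26 genes, passed the threshold of the paper (p = 0.0274) and not the adjusted test (limma, adjusted p = 0.185; exact permutation p = 0.0857).

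Cfi and Cfb were highest in the same libraries, Nr2f2 f/f replicate 3 and Nr2f2 d/d replicates 1 and 3, and the ratio of Cfb to Cfi was 3.76 to 8.93 in Nr2f2 f/f and 3.07 to 4.34 in Nr2f2 d/d. The summed markers of neutrophils were highest in the same libraries, and so were those of stroma (973 FPKM in Nr2f2 f/f replicate 3, and 1773 and 2401 FPKM in Nr2f2 d/d replicates 1 and 3). Of the stromal markers, Col6a1, Col6a2 and Pdgfra were highest in these libraries. Among the controls Dcn and Pdgfrb were highest in replicate 2, Lum in replicate 4 and Vcan in replicate 1. The 8 neutrophil markers summed to 3.75, 4.82, 21.6 and 12.3 FPKM in Nr2f2 f/f and 40.9, 18.8, 42.4 and 21.6 FPKM in Nr2f2 d/d, with S100a8 (log2 fold change 2.16, limma adjusted p = 0.0689) and S100a9 (2.25, adjusted p = 0.0912) making up 42.3% to 63.4% of the sum in Nr2f2 f/f and 82.8% to 86.6% in Nr2f2 d/d. Of the 4 markers tested, 0 passed the adjusted test in limma and 3 had an unadjusted p under 0.05, of which Retnlg had −1.32. Csf3r was 0.903 to 3.19 FPKM in Nr2f2 f/f and 1.69 to 3.79 FPKM in Nr2f2 d/d. The other 4 were below the filter. Cxcr2 was 0.047 to 0.341 FPKM in Nr2f2 f/f and 0.368 to 1.06 FPKM in Nr2f2 d/d, without overlap, and Ly6g was 0.088 to 0.362 and 0.215 to 1.45 FPKM, both highest in Nr2f2 f/f replicate 3 and Nr2f2 d/d replicates 1 and 3. Mpo was at most 0.191 FPKM and Elane at most 0.023 FPKM in every library. The part of neutrophils or stroma in the Cfb and Cfi values was not tested. Cfb and Cfi passed the threshold of the paper without Nr2f2 f/f replicate 3 or without Nr2f2 d/d replicate 4. Cfi also passed it without Nr2f2 d/d replicate 2. Without any other single library neither did.

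Vtn encodes vitronectin, an adhesive matrix protein that also binds the C5b-7 complex and keeps it off membranes. It was 2.18, 2.35, 2.51 and 1.78 FPKM in Nr2f2 f/f and 0.640, 1.03, 1.21 and 1.117 FPKM in Nr2f2 d/d, with every Nr2f2 d/d library below every control. The mean went from 2.21 ± 0.314 to 0.999 ± 0.251 FPKM, a log2 fold change of −0.86 ± 0.154 (SE; limma, adjusted p = 0.0316; exact permutation p = 0.0286). The adjusted p (limma) was 0.0416 without Nr2f2 d/d replicate 3 and 0.0479 without Nr2f2 d/d replicate 4. When a control was left out it was 0.0896, 0.0565, 0.0741 and 0.0576 in turn, and it was 0.0651 without Nr2f2 d/d replicate 1 and 0.0986 without Nr2f2 d/d replicate 2.

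The bases before Vtn were searched because it passed the adjusted test and the RefSeq promoters held it. They are the 221 bases before its GENCODE start, which lies upstream of its RefSeq start, chr11:78498870-78499090 of GRCm38.p6, plus strand, shown in lower case throughout because none of the letters searched occurs in it.
Vtn: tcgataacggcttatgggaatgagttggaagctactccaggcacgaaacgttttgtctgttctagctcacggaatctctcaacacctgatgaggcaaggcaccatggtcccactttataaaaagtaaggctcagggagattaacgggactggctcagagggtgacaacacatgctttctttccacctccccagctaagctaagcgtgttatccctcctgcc
The searches, on both strands, were for AGGTCA and GGGTCA, hexamers bound by nuclear receptors, for GAAANNGAA, a core of interferon response elements, and for TTCNNNGAA, bound by STAT factors. Over 32851 promoters cut to the same length and the same distance from the RefSeq start, as the Vtn stretch is, 12.6%, 10.5%, 6.3% and 6.3% held them, and overlaps between the motifs were not removed. The bases between each stretch and its RefSeq start, the nearest part of the promoter, were not searched in any gene. Of the 28 complement genes in that set, 8 held AGGTCA or GGGTCA (C1qc, C1rl, C3, C5ar2, C6, C7, Mbl2 and Cr1l), against 21.6% of all promoters. By motif, AGGTCA was in 7 of the 28, GGGTCA in 2, GAAANNGAA in 3 and TTCNNNGAA in 4, and C3 held both hexamers. The other 9, C1qa, C2, C4b, Cfb, Cfi, Serping1, Clu, Masp1 and Colec12, were not searched.

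Clu, which encodes clusterin, was 92.6, 106, 127 and 49.9 FPKM in Nr2f2 f/f and 169, 91.7, 319 and 76.2 FPKM in Nr2f2 d/d. Nr2f2 d/d replicate 3 was the highest library and replicates 2 and 4 lay among the controls, so the log2 fold change of 0.65 ± 0.473 did not pass (limma, adjusted p = 0.462). Serping1, which encodes the C1 inhibitor, was 153, 167, 135 and 126 FPKM in Nr2f2 f/f and 150, 170, 118 and 173 FPKM in Nr2f2 d/d, with full overlap and a log2 fold change of 0.06 ± 0.145.

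The membrane regulators, which protect host cells from C3b and the pore, were without a call. Cd55, which encodes the decay-accelerating factor, was 28.5, 94.7, 22.7 and 23.9 FPKM in Nr2f2 f/f and 21.3, 28.5, 16.0 and 38.2 FPKM in Nr2f2 d/d. Its log2 fold change of −0.49 ± 0.472 became −0.01 without Nr2f2 f/f replicate 2, which stood far above the other libraries. Cr1l, which encodes the rodent regulator Crry, was 20.3, 24.2, 20.4 and 19.6 FPKM in Nr2f2 f/f and 19.9, 21.2, 20.7 and 19.97 FPKM in Nr2f2 d/d. With a log2 fold change of −0.04 ± 0.077, the smallest standard error of the 26 genes, it was the most even of the set. Cd59a, which encodes an inhibitor of the pore, was 8.16, 11.6, 8.27 and 7.40 FPKM in Nr2f2 f/f and 8.29, 11.1, 9.80 and 7.44 FPKM in Nr2f2 d/d, a log2 fold change of 0.05 ± 0.165. Cd46, which in mice is largely a protein of sperm, had a mean of 1.13 ± 0.203 and 0.946 ± 0.112 FPKM and a log2 fold change of −0.16 ± 0.119. Over the 8 regulators, 4 had a higher and 4 a lower mean, and the median log2 fold change was 0.00.

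Other genes of the complement system were taken from a list of 35, of which 33 were in the table and 14 were tested. 10 of these had a higher and 4 a lower mean in Nr2f2 d/d, 0 passed the adjusted test in limma, 1 had an unadjusted p under 0.05, passed the threshold of the paper (8.8% of all genes tested) and did not overlap (15.4%), and the median log2 fold change was 0.13. That gene was Cd93, a membrane protein of endothelium once taken for a C1q receptor, at 35.6 ± 8.35 FPKM in Nr2f2 f/f and 19.9 ± 2.29 FPKM in Nr2f2 d/d (log2 fold change −0.80 ± 0.168; limma, adjusted p = 0.0501). The next smallest p was that of C1qbp, with a log2 fold change of −0.22. Endothelial markers were lower in the same libraries: the 6 summed to 183 to 254 FPKM in Nr2f2 f/f and 109 to 137 FPKM in Nr2f2 d/d, and Cdh5 (−0.99), Pecam1 (−0.90), Emcn (−0.70) and Kdr (−0.64) passed the adjusted test. The part of endothelium in the Cd93, Vtn and Masp1 values was not tested.

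For the other cell types, the summed markers separated the genotypes in some lists and overlapped in others. Epithelial markers summed to 618 to 659 FPKM in Nr2f2 f/f and 845 to 964 FPKM in Nr2f2 d/d, with calls for Krt8 (0.74) and Elf3 (1.43). Of these 10 markers, 9 were higher and 1 lower in Nr2f2 d/d. Krt8 and Krt19 had means of 114 and 65.6 FPKM in Nr2f2 f/f and 192 and 164 FPKM in Nr2f2 d/d. Epcam (0.06), Krt18 (0.06) and Cldn4 (−0.05) hardly differed. Stromal markers summed to 819 to 973 and 1294 to 2401 FPKM, with a call for Dcn (0.79) and with Vcan at −0.91. Of these 7 markers, 4 were higher and 3 lower in Nr2f2 d/d. Most of the sum was Dcn, Col6a1 and Col6a2, with means of 410, 215 and 124 FPKM in Nr2f2 f/f and 705, 526 and 320 FPKM in Nr2f2 d/d. Pdgfra had −0.20 and Pdgfrb −0.07, neither called. Mesothelial markers came to 33.02 to 53.8 and 56.8 to 74.7 FPKM (Msln 0.80, called, and Upk3b 0.66). Gland markers summed to 138 to 3290 and 27.4 to 82.6 FPKM, of which Spink1 (−5.93, called), Prss28 and Prss29 (−4.18, not called) were 85.3% to 99.9% in Nr2f2 f/f. Foxa2 had −0.02 and Cxcl15 1.02, neither called. T and NK cell markers summed to 29.1 to 46.0 and 22.1 to 91.6 FPKM (Cd3e 0.65, Cd3g 1.11) and smooth muscle markers to 1225 to 1742 and 985 to 2449 FPKM (Cnn1 0.38, Actg2 0.25), both with overlap and with 0 calls in limma (2 of 5 and 0 of 6 at an unadjusted p under 0.05). Fat cell markers summed to 4.85 to 58.9 and 35.8 to 113 FPKM, of which Thrsp (1.84, not called) was 75.7% to 99.0%. The other 7 fat cell markers summed to 0.828 to 3.43 and 0.958 to 1.83 FPKM, with Plin4 at 0.17 and Adipoq at a mean of 0.199 and 0.121 FPKM. Hepatocyte markers summed to 0.925 to 4.29 and 0.316 to 1.32 FPKM (Ttr −1.03), ovary markers to 3.56 to 5.43 and 3.34 to 4.00 FPKM (Inha −0.21, with Fshr at 0), and B cell markers to 0.337 to 0.522 and 0.435 to 0.799 FPKM, with none tested. The part of these cell types in the values of C4b, C2 and the other complement genes was not tested.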

How the data were processed

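Whole uterine RNA, in 4 Nr2f2 f/f and 4 Nr2f2 d/d samples, was sequenced by the authors as 76-bp paired-end reads, which were trimmed with cutadapt 1.12, aligned to mm10 with STAR 2.5.2b and counted with featureCounts 1.5.0-p1, per the paper and the submitters' processing notes, which also name Cufflinks 2.0.2. The deposited values are FPKM, made by the authors from fragments scaled to gene length and library total. The annotation, the strand setting and the formula are not given in the sources used here. The authors tested counts with DESeq2, and those counts were not used here.

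Libraries were matched to columns by name, and replicates carry the numbers of their titles, 1 to 4. The columns of the table carry other numbers (1, 2, 3 and 5 for the controls, 1, 3, 4 and 5 for Nr2f2 d/d). Nothing beyond the labels shows that the samples were separate mice, and p-values measure the spread between these samples. Correlations between libraries over the genes tested were 0.907 to 0.989, and 0 pairs were identical. Symbols were matched to GENCODE vM21 for coordinates (24378 of 24963), and 3893 genes were at 0 in all libraries.

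Genes that averaged 0.5 FPKM or more were tested on log2(FPKM + 0.5) with limma 3.58.1 in R 4.3.3 (lmFit, eBayes with trend, two-sided, Benjamini-Hochberg over 14323 genes). A log2 fold change on this scale understates the change of low genes. Single genes were also compared by an exact permutation test over all 70 arrangements. Depth was recovered as the library total at which values of short single-exon genes become whole fragments (within 0.1): 85.8% to 90.3% did. Shared sequence was measured as windows of 76 bases found in another gene's transcripts. Tables were made with Python 3.11.15, and the model was tested on simulated data.

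The complement genes, the other complement genes and the marker lists were chosen with earlier results of these data known. Genes past either threshold or with a mean of at least 5 FPKM are given by library, other tested genes by group means, and the rest by their range. Of the other complement genes and of each marker list, those past the adjusted threshold and the 2 with the smallest p are named. C4a, C1rb, C1s2, the fat cell markers, Folr2, Retnlg, Csf3r, Cxcr2, Ly6g, Mpo, Elane, Foxa2, Cxcl15, Prss28, Fshr, Hoxa10 and Hoxa11 are named outside this rule, as are C1rl, Cfd, C7 and C8a with the values of each library, and were chosen after their values were seen. The same holds for Epcam, Krt18, Krt19, Cldn4, Lum, Col6a1, Col6a2, Pdgfra and Pdgfrb. The alternatives were 0.1 or 1 added before the log2, no filter or a filter at 1 FPKM, scaling by median ratios or quantiles, eBayes without trend or robust, the replicate number as a block, and each library left out.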

Additional observations from a re-analysis of the deposited data

Results flagged for a closer look

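In 52 groups of 4 libraries, 26 genes in 2 genotypes, 5 libraries stood apart from the other 3 of their group by Dixon's 95% criterion, where about 1 group in 20, or 2.6, is set apart by chance. Cfi was 16.9 FPKM in Nr2f2 f/f replicate 3. C1qb was 74.3 FPKM in the same library, and Cfd was 5.36 FPKM there. Cd55 was 94.7 FPKM in Nr2f2 f/f replicate 2, and C3ar1 was 6.74 FPKM in Nr2f2 d/d replicate 1.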

How the results depend on the processing

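Of the 26 complement genes tested, 19 kept their direction under all 18 alternatives. The other 7 (C5ar1, C9, Cfd, Cd55, Cd59a, Cr1l and Serping1) had the opposite sign under at least 1 and were never called. C4b, C2 and Vtn were called in 12, 8 and 10 of the 18, and no other complement gene was. Without the filter on low values C2 had an adjusted p of 0.0530 (limma). At the threshold of the paper, 0.1 added before the log2 gave 7 complement genes, C1rl (log2 fold change 0.52) besides the 6. No filter and quantile scaling each gave 5, without Cfb. The title numbers as a block gave 7, with Clu. The description numbers as a block, in 6 libraries, gave 5, with C3 and without Cfb and Cfi. Leaving out 1 library left 0 to 3 complement genes past the adjusted threshold, from 0 (without Nr2f2 f/f replicate 1 or 4 or Nr2f2 d/d replicate 1 or 2) to 3 (without Nr2f2 d/d replicate 3) (6 to 11 at an unadjusted p under 0.05 in limma) and 4 to 10 past the threshold of the paper. Of all genes, 42 to 347 passed the adjusted threshold, 2222 to 2904 the unadjusted p (3031 with all libraries) and 1080 to 1444 the threshold of the paper. Fewer libraries are by construction fewer degrees of freedom. The 10 were reached without Nr2f2 f/f replicate 3, which added C1qa, C1qb, C1qc and C3ar1. Of all adjusted calls 41.6% were higher in Nr2f2 d/d, and 52.7% with median-ratio scaling. The filter at 0.5 FPKM left 11 complement genes untested. Of these, C5ar2, Hc, C6, C7, Masp2, Fcna and Colec11 were above the worth of 3 fragments in all 8 libraries. C8a was above it in 5 libraries, C8b in 1, and Mbl1 and Mbl2 in 0.

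The labels do not say whether the replicate numbers pair the samples. The deviations of same-numbered libraries from their group means had correlations of −0.204, −0.172, 0.0452 and −0.0403 by title. By description they were −0.204, 0.149 and −0.0403, and pairs that shared neither number had −0.321 to 0.279. So few pairs cannot show whether same-numbered libraries were handled together. With the title numbers as a block, 0 complement genes and 1 of all genes passed the adjusted threshold in limma (9 and 2472 at an unadjusted p under 0.05), and Nr2f2 had a log2 fold change of −1.39 (limma, adjusted p = 0.0714). With the description numbers as a block, in 6 libraries, 0 complement genes and 0 of all genes passed (7 and 3198 at an unadjusted p under 0.05), and Nr2f2 had −1.32 (adjusted p = 0.0624).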
